A study of Homo sapiens with 4 samples.

Results

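MDS-L and SKM-1 are human cell lines derived from patients with myelodysplastic syndrome (MDS), and the study calls SKM-1 a leukemia line derived from MDS. The comparison described here is of their untreated state. It rests on the 2 arrays of cells kept with DMSO for 5 days, 1 array of each line, out of the 4 arrays of the series. The study tested how decitabine (DAC), a drug that lowers DNA methylation, alters gene expression in these lines, and the other 2 arrays are of cells given 1 μM DAC in daily pulses of 24 h for 5 days. Gene expression was measured on the PrimeView array, which reads transcripts with groups of short probes called probe sets. Some probe sets match more than 1 transcript or gene.

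The MDS-L cells grew in RPMI medium with 10% fetal bovine serum and with IL-3 at 100 U/ml, a cytokine this line depends on. The SKM-1 cells grew in the same medium and serum, and no IL-3 is given for them, so that cell line and IL-3 cannot be told apart in any difference below. No engineered allele or transgene is given for either line. All values are log2 expression values of 1 array, and each difference is MDS-L minus SKM-1. With 1 array a line no spread between cultures is known, no test was possible and no p-value is given.

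As background, blood cells descend from stem and progenitor cells that carry CD34 and KIT, and each branch then turns on genes of its own: granule proteases in neutrophil precursors, platelet glycoproteins in megakaryocytes, the IgE receptor in mast cells and basophils, HLA class II in antigen-presenting cells. Cytokine receptors without enzyme activity signal through JAK kinases and STAT factors, whose targets include the CISH and SOCS inhibitors. HOX genes and their MEIS partners are patterning factors that blood stem cells use and that many myeloid leukemias keep on.

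The array annotation gave 18132 genes with 1 symbol each, each read by its brightest probe set. Background was set for each array from probe sets of olfactory receptors, assumed to be mostly silent in these cells, at 4.84 for MDS-L and 4.88 for SKM-1. Of these genes, 13082 lay above background in at least 1 line and are called measured, 11708 in both, 634 in MDS-L alone and 740 in SKM-1 alone. A value under background was raised to it, so that a fold against such a value is a lower bound and is written "at least". At least 2-fold higher in MDS-L were 1623 measured genes (12.4%), and 1583 (12.1%) were at least 2-fold lower. At 16-fold the counts were 109 and 107. The median difference was -0.01, and the arrays had nearly the same distribution of values. Counted by probe set, 30430 probe sets were measured, and 3498 and 3385 of them were past 2-fold in these directions.

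**Figure D1:**
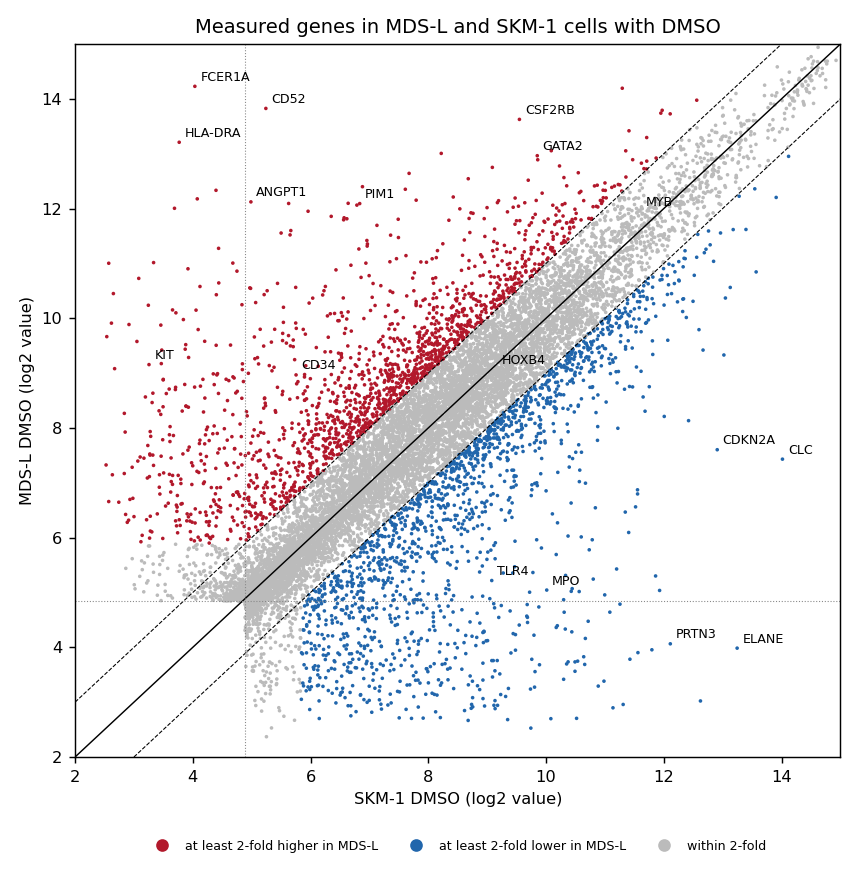
Each point is 1 measured gene, with its log2 value in SKM-1 cells on the horizontal axis and in MDS-L cells on the vertical axis, 1 array each. The dashed lines mark a 2-fold difference and the dotted lines the background of each array. FCER1A, CD52 and HLA-DRA lie far above the diagonal, ELANE, PRTN3 and CLC far below it, and MYB and HOXB4 close to it.

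Probe sets that read the same gene gave a measure of how well a difference is known within these arrays. Over the 7964 genes with more than 1 measured probe set, the pooled SD of the difference within a gene was 0.46. This spread covers the probes, not the cultures. Among the genes with several measured probe sets, every probe set was higher in MDS-L for 1078 of 1170 genes called higher, and every probe set was lower for 939 of 976 called lower. Housekeeping genes differed little: 23 of 26 lay within 2-fold, with a median of -0.26. TBP, a general transcription factor, had 7.44 in MDS-L against 7.02 in SKM-1, and GAPDH, a glycolytic enzyme, 14.01 in MDS-L against 14.19 in SKM-1. The lysosomal enzyme GUSB was 4.79-fold lower in MDS-L, at 8.54 against 10.80 in SKM-1.

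The genes were then read in 37 lists of lineages, receptors and pathways. By the share of members that were higher in MDS-L, the lists of stem and progenitor cells, megakaryocytes, HLA class II and JAK-STAT signaling came first. By the share that were lower, HLA class I and peptide loading, DNA replication and mitosis, and granule proteins came first. Lists are described below by their counts, some also by their median, and a few only by single members. Over all measured genes the values were 12.4% higher, 12.1% lower and a median of -0.01.

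**Figure D2:**
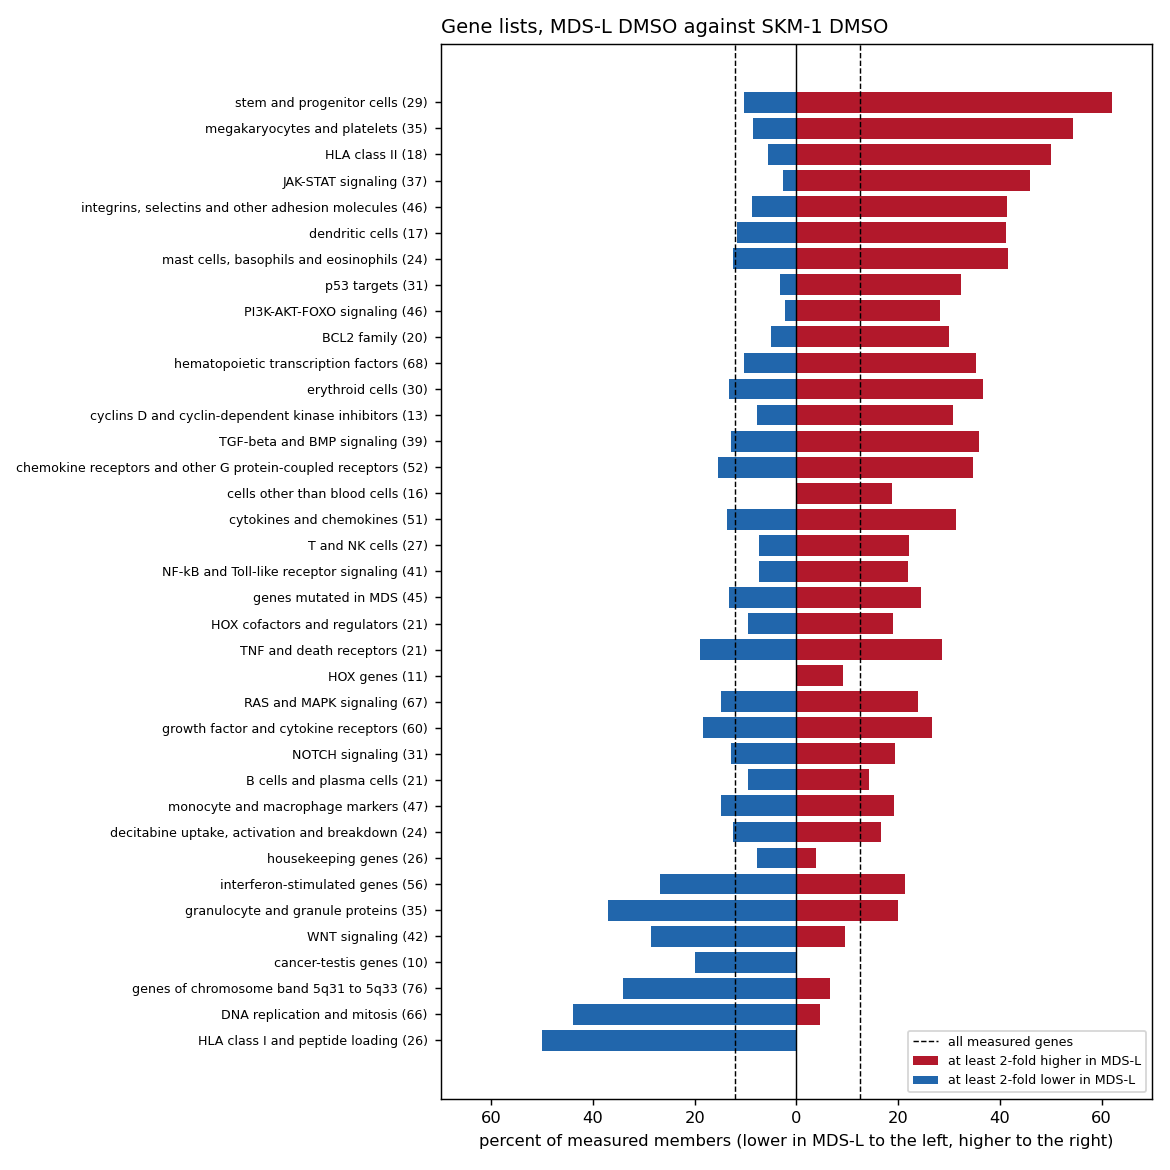
Bars give the percentage of the measured members of each gene list that were past 2-fold higher in MDS-L DMSO than in SKM-1 DMSO (red, to the right) or past 2-fold lower (blue, to the left). The number of measured members is in parentheses, and the dashed lines mark 12.4% and 12.1%, the values over all measured genes. 18 of 29 stem and progenitor genes lie to the right, and 13 of 26 HLA class I and loading genes to the left.

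The identity of MDS-L was checked first. By surface antigens, the study describes this line as carrying CD34, KIT, HLA-DR, CD13 and, on some cells, CD41, and as lacking CD3, CD14 and CD20. CD34, the sialomucin that marks progenitors, had 8.97 in MDS-L against 5.75 in SKM-1, a 9.27-fold difference. KIT, the receptor of stem cell factor, had 9.15 in MDS-L against 3.25 in SKM-1, under background there. By the median over its probe sets, however, KIT was under background in both lines. ANPEP, which encodes CD13, had 11.95 in MDS-L against 5.96 in SKM-1. ITGA2B, which encodes CD41, had 11.52 in MDS-L against 5.65 in SKM-1. By their brightest probe sets, CD34, KIT, ANPEP and ITGA2B were thus above background in MDS-L and higher there than in SKM-1. CD33 and CD235a, which the study also names, were not analysed here. Of the markers said to be lacking, CD3D and MS4A1 (CD20) were under background in both lines and CD3E lay just above it, with 5.02 in MDS-L against 5.42 in SKM-1. The transcript of CD14, the co-receptor for bacterial lipopolysaccharide, was above background in MDS-L, against the description, with 6.59 in MDS-L and 3.72 in SKM-1, under background. Surface protein was not measured on these arrays. For SKM-1 no marker is given in the labels.

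Stem and progenitor genes were higher in MDS-L as a group: of 29 measured members 18 were past 2-fold higher and 3 lower, with a median of 1.52. The largest difference was that of ANGPT1, a ligand of the TEK receptor that stem cells can secrete, with 12.12 in MDS-L against 4.99 in SKM-1, 141-fold higher. EGFL7, a secreted factor first known from vessels, had 9.80 in MDS-L against 5.88 in SKM-1. ITGA6, an integrin chain of stem cells, had 9.96 in MDS-L against 6.48 in SKM-1. Smaller differences of the same direction were seen for NPR3 (9.33-fold), for the cytokine signaling inhibitor SOCS2 (10.6-fold) and for the de novo DNA methyltransferase DNMT3B (3.22-fold). SPINK2 and HOPX, progenitor genes, had 7.36 and 7.22 in MDS-L and were under background in SKM-1. Lower were 3 members. MECOM, which encodes the stem cell factor EVI1, had 4.86 in MDS-L, just above background, and 8.40 in SKM-1, 11.6-fold lower. CD38, an ectoenzyme gained as progenitors mature, had 3.99 in MDS-L against 8.49 in SKM-1. PROCR, the protein C receptor, had 5.50 in MDS-L against 8.37 in SKM-1. By the brightest probe sets, MDS-L thus had the higher level of CD34 and KIT and the lower level of CD38, while MECOM ran the other way. FLT3, PROM1, THY1 and TEK were under background in both lines.

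The largest difference of all belonged to the mast cell and basophil genes. FCER1A, the IgE-binding chain of the high-affinity IgE receptor, had 14.23 in MDS-L against 4.03 in SKM-1, under background, at least 649.6-fold higher. Its partner chain FCER1G, which many Fc receptors share, lay within 2-fold, with 10.77 in MDS-L against 10.33 in SKM-1. HPGDS, which makes prostaglandin D2 in mast cells, had 10.43 in MDS-L against 4.40 in SKM-1. CPA3, the mast cell carboxypeptidase, had 8.63 in MDS-L against 3.55 in SKM-1. The sialic acid receptor SIGLEC6, found on mast cells, was 48.0-fold higher, and IL1RL1, the receptor of IL-33, at least 8.48-fold higher. Genes of leukotriene synthesis followed, ALOX5AP with 12.11 in MDS-L against 9.17 in SKM-1 and LTC4S with 7.92 in MDS-L against 5.15 in SKM-1. Lower members of the list included CLC and PRG2. CLC, the galectin that forms Charcot-Leyden crystals in eosinophils and basophils, had 7.43 in MDS-L against 14.02 in SKM-1, 96.0-fold lower. PRG2, the major basic protein of eosinophil granules, had 10.84 in MDS-L against 13.57 in SKM-1, 6.61-fold lower, and was far above background in both lines. Eosinophil peroxidase (EPX) lay within 2-fold, with 4.67 in MDS-L against 5.67 in SKM-1. The histamine-making enzyme HDC had 5.88 in MDS-L against 3.71 in SKM-1. In all, 10 of 24 members were higher and 3 lower, and CMA1, IL5RA and MRGPRX2 were under background in both lines.

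The promoters of FCER1A and HPGDS are shown because these genes had some of the largest differences and because GATA2, a factor that binds GATA motifs, differed in the same direction. The sequences are the 150 bases before the start of each gene in RefSeq, build GRCh38.p14, at chr1:159302186-159302335 (plus strand) and chr4:94342837-94342986 (minus strand). The capitals mark AGATAA on either strand, which 5.17% of 35116 RefSeq promoters hold in a window of this length.
FCER1A: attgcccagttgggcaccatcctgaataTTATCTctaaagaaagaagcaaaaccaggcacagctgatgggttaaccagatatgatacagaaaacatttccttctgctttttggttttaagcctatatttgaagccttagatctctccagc
HPGDS: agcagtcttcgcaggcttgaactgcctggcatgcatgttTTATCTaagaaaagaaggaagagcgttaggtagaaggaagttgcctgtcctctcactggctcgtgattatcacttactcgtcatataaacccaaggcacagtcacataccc
Each window held 1 match, in both cases on the minus strand of the gene (TTATCT as printed), beginning 122 bases before the start in FCER1A and 111 bases before it in HPGDS. A match describes the letters and is not a shown binding site. A link between GATA2 and the differences of these genes was not tested.

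Megakaryocyte and platelet genes were a further lineage that was higher in MDS-L. Among 35 measured members 19 were past 2-fold higher and 3 lower, with a median of 1.15. VWF, the von Willebrand factor that tethers platelets, had 10.58 in MDS-L against 4.12 in SKM-1, at least 51.7-fold higher, although its 5 measured probe sets gave differences between -0.07 and 5.69. The adaptor LAT, used by T cells, mast cells and platelets, had 11.55 in MDS-L against 5.50 in SKM-1. CAVIN2 and the nitric oxide receptor chain GUCY1B1 had 10.10 and 9.91 in MDS-L and were under background in SKM-1. The granule protein MMRN1 was at least 24.8-fold higher, the platelet chemokine PPBP at least 12.8-fold and PDGFA, a platelet-derived growth factor chain, 16.7-fold higher. ITGB3, the partner of ITGA2B in the fibrinogen receptor, had 6.04 in MDS-L against 4.23 in SKM-1, and its probe sets gave differences between -0.01 and 1.16. GP9 and PF4, a platelet glycoprotein and a platelet chemokine, had 6.38 and 5.70 in MDS-L against 6.64 and 4.81 in SKM-1. The difference was therefore in some platelet genes and not in all. The tetraspanin CD9 was the largest exception, with 4.86 in MDS-L against 7.87 in SKM-1, 8.06-fold lower.

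Erythroid genes gave a mixed picture, with 11 of 30 higher, 4 lower and a median of 0.11. That median moved with the background level, to 0.81 over 20 genes at the 99th percentile of the olfactory receptor probe sets and to 0.79 over 22 genes at each array's median. The repressor GFI1B, shared by erythroid and megakaryocyte precursors, had 9.14 in MDS-L against 5.30 in SKM-1. RHAG, the Rh-associated glycoprotein, had 7.86 in MDS-L against 3.67 in SKM-1. XK, the membrane partner of the Kell antigen, had 2.91 in MDS-L against 8.75 in SKM-1 and was at least 15.0-fold lower. Close to background in both lines were genes of late erythroid cells: ALAS2, the first enzyme of heme synthesis, had 5.08 in MDS-L against 4.99 in SKM-1, and SLC4A1, band 3 of the red cell membrane, 5.15 in MDS-L against 5.46 in SKM-1.

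In the opposite direction the largest difference of all belonged to the neutrophil granule genes. ELANE, neutrophil elastase, had 3.98 in MDS-L, under background, and 13.24 in SKM-1, at least 338-fold lower. PRTN3, proteinase 3, had 4.06 in MDS-L against 12.11 in SKM-1, at least 154-fold lower. AZU1, azurocidin, had 5.24 in MDS-L against 10.80 in SKM-1, 47.1-fold lower. These 3 proteins of the primary granule lie side by side on chromosome 19. MPO, myeloperoxidase of the same granule, had 5.04 in MDS-L against 10.01 in SKM-1, and the bactericidal protein BPI 3.76 in MDS-L against 9.08 in SKM-1. CEBPE, the factor that drives the later granulocyte program, had 5.43 in MDS-L against 11.20 in SKM-1, 54.6-fold lower. MS4A3, a gene of granulocyte and monocyte progenitors, was 27.1-fold lower. A primary granule protease that was close to background in both lines was CTSG, cathepsin G, with 5.37 in MDS-L against 5.22 in SKM-1. Genes of the later granules, LTF, LCN2, MMP8 and OLFM4, were under background in both lines. The list as a whole had 13 of 35 lower and 7 higher, with a median of 0.05 that turned to -0.93 at a higher background. The higher members included ANPEP, CD24 with 10.15 in MDS-L against 4.05 in SKM-1, the gelatinase MMP9 with 10.03 in MDS-L against 7.27 in SKM-1, and CST7, a protease inhibitor, with 8.79 in MDS-L against 4.36 in SKM-1.

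The promoter of PRTN3 is shown for the granule genes, from RefSeq at chr19:840849-840998, build GRCh38.p14, plus strand. The capitals mark GAGGAAGT, a form of the motif that SPI1 (PU.1) binds, searched on both strands and held by 1.46% of RefSeq promoters in a window of this length.
PRTN3: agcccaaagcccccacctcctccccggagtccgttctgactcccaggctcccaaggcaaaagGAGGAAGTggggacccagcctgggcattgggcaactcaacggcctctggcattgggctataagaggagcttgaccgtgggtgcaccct
The window held 1 match, beginning 88 bases before the start, which is not a shown binding site. SPI1 itself was within 2-fold, with 6.80 in MDS-L against 7.23 in SKM-1.

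Monocyte and macrophage markers split in both directions, with 9 of 47 higher and 7 lower and a median of -0.01. FCN1, a ficolin secreted by monocytes, had 6.27 in MDS-L against 10.19 in SKM-1, 15.2-fold lower. FCGR1A, the high-affinity IgG receptor, had 6.37 in MDS-L against 9.42 in SKM-1. The median over the probe sets of FCGR1A was under background in both lines. Lysozyme (LYZ) differed by less than 2-fold, with 9.82 in MDS-L against 10.67 in SKM-1. TYROBP, an adaptor of activating receptors, had 11.79 in MDS-L against 8.35 in SKM-1, 10.8-fold higher. S100A8, a calcium-binding protein of myeloid cells, had 10.87 in MDS-L against 8.56 in SKM-1, while its partner S100A9 had 9.62 in MDS-L against 10.37 in SKM-1. CSF1R, the M-CSF receptor of the monocyte branch, was low in both lines, at 5.19 in MDS-L against 5.85 in SKM-1, and CD163, MRC1 and VCAN were under background in both.

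Markers of other cells were in part under background, as were 5050 of all 18132 genes. Of the T and NK cell list 25 of 52 genes were under background in both lines, and of the B cell list 21 of 42. Among the measured ones a few stood far apart. CD52, a small surface glycoprotein of lymphocytes, had 13.82 in MDS-L against 5.24 in SKM-1, 384-fold higher, the largest difference among genes above background in both lines. The activation antigen CD69 was under background in SKM-1 and at least 69.4-fold higher in MDS-L. NCR3, an activating receptor of NK cells, had 7.72 in MDS-L against 4.99 in SKM-1. The defining T cell genes CD3D, CD3G, CD2 and ZAP70 and the B cell genes MS4A1, EBF1 and BLNK were under background in both lines. PAX5, the B cell factor, was above background in both and nearly level, with 8.93 in MDS-L against 8.94 in SKM-1. The dendritic cell list had 7 of 17 higher, among them the IL-3 receptor chain IL3RA, while the factor BATF3 was 4.05-fold lower. Of markers of cells outside the blood, 15 of 31 were under background in both lines. PECAM1, which platelets and myeloid cells also carry, was 18.6-fold higher, and the keratin KRT18 and albumin (ALB) were 5.28-fold and at least 4.29-fold higher.

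**Figure D3:**
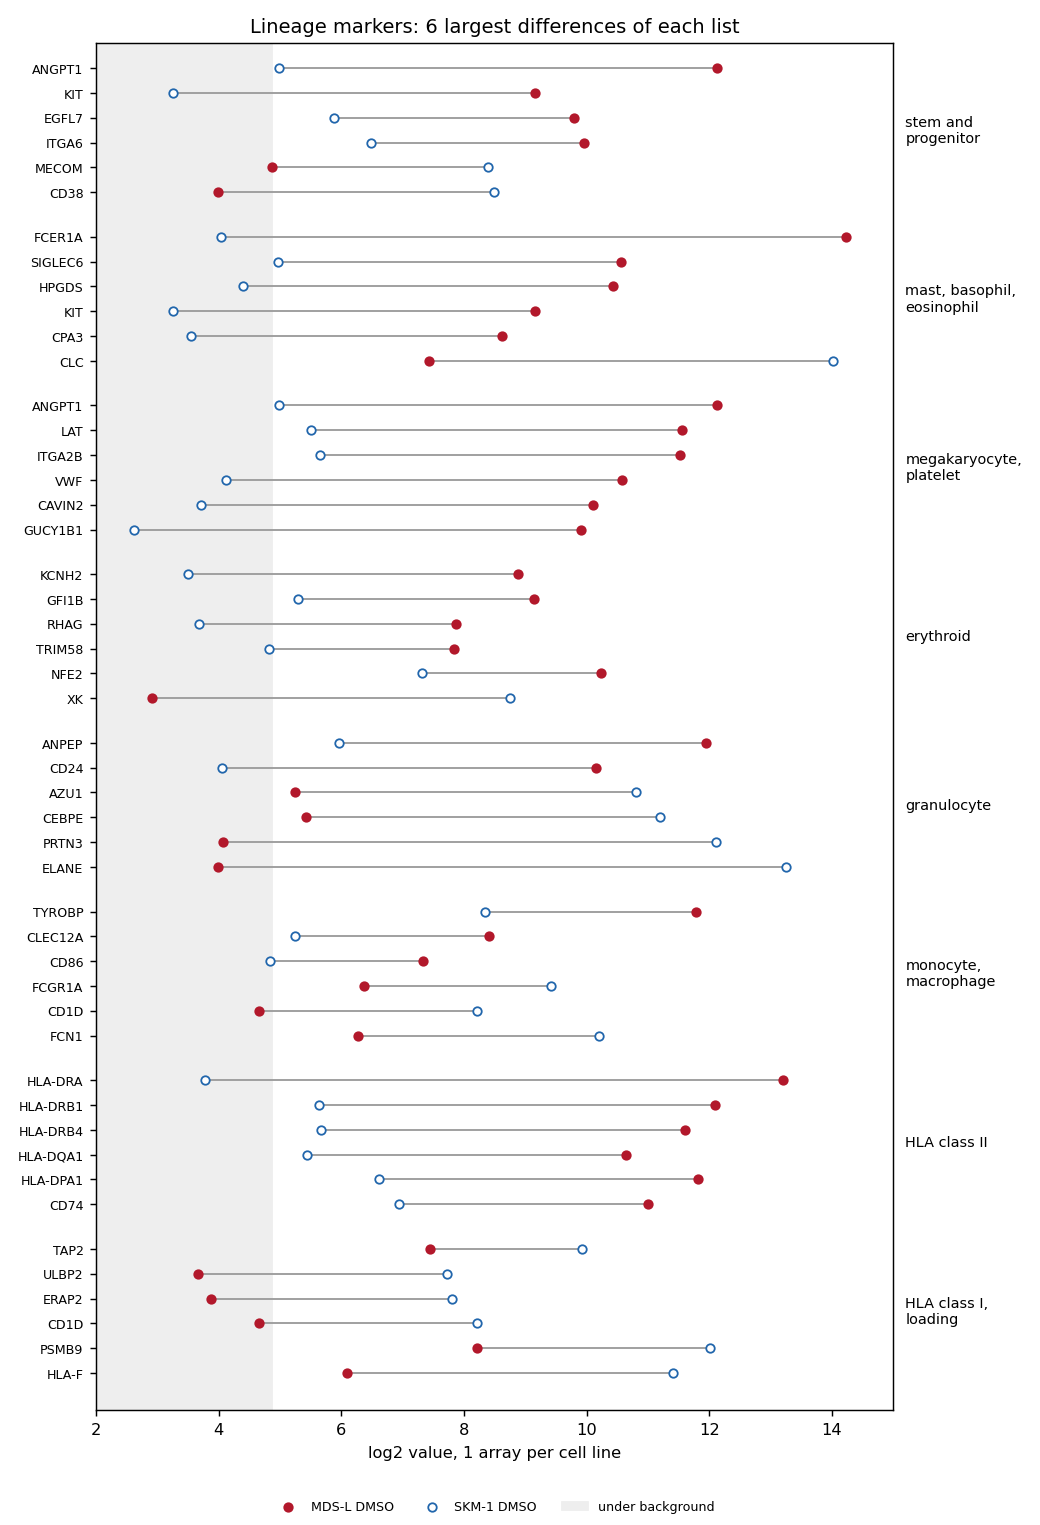
For each of 8 lists the 6 measured genes with the largest difference are shown, with the log2 value of MDS-L DMSO as a filled red point and of SKM-1 DMSO as an open blue point, 1 array each. The grey area is under background. Red points lie to the right for the mast cell genes other than CLC, for the platelet genes and for HLA class II, and to the left for the primary granule genes and HLA class I.

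Several HLA class II genes were higher in MDS-L. HLA-DRA, the alpha chain of all HLA-DR molecules, had 13.21 in MDS-L against 3.77 in SKM-1, under background, at least 320.3-fold higher. HLA-DPA1 had 11.81 in MDS-L against 6.62 in SKM-1. CD74, the chaperone of class II molecules, was 16.7-fold higher. HLA-DMA, which helps load peptides, had 9.71 in MDS-L against 5.91 in SKM-1. HLA-DRB1, HLA-DRB4 and HLA-DQA1 were 88.4-fold, 61.1-fold and 36.7-fold higher. In all 9 of 18 list members were higher and 1, RFX5, lower, with a median of 1.16. Of the regulators of the class II promoter, the co-activator CIITA had 6.48 in MDS-L against 6.36 in SKM-1. RFX5 had 9.84 in MDS-L against 11.53 in SKM-1. A link of these regulators to the class II differences was not tested. HLA-DR genes resemble one another and several of their probe sets match more than 1 gene. Without probe sets marked as shared, 10 members were left and their median was 0.04. HLA-DRA, HLA-DRB1, HLA-DRB4, HLA-DPA1 and HLA-DQA1 then had no value. By the median over its probe sets, HLA-DQA1 was under background in both lines.

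The promoters of HLA-DMA and HLA-DRB1 are shown because 9 of the 18 measured class II list members were higher and because their promoters are known for a common set of boxes. The sequences are from RefSeq, build GRCh38.p14, at chr6:32953098-32953247 and chr6:32589849-32589998, both minus strand. The capitals mark CTGATTGG, the letters of the Y box of the HLA-DR promoter, searched on both strands and held by 3.12% of RefSeq promoters in a window of this length.
HLA-DMA: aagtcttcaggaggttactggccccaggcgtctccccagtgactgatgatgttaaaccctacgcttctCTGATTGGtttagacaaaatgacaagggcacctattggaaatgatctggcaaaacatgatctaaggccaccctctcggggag
HLA-DRB1: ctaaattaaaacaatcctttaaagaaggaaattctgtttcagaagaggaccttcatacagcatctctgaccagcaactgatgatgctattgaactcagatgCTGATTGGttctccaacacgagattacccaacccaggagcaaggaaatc
Each window held 1 match, beginning 82 bases before the start in HLA-DMA and 49 bases before it in HLA-DRB1. These matches are not shown binding sites.

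HLA class I and its loading machinery ran the other way: none of 26 measured members was at least 2-fold higher and 13 were lower, with a median of -0.88, or -0.27 when the median over the probe sets of a gene was used. PSMB9, a subunit of the immunoproteasome, had 8.21 in MDS-L against 12.01 in SKM-1, 13.9-fold lower. TAP2 and TAP1, the peptide transporter, were 5.59-fold and 2.95-fold lower. NLRC5, the co-activator of class I genes, had 6.50 in MDS-L against 8.64 in SKM-1. HLA-F had 6.09 in MDS-L against 11.40 in SKM-1, although its measured probe sets ranged widely in difference, between -5.80 and -0.53. HLA-B and HLA-C were 2.25-fold and 3.43-fold lower, with 12.95 and 11.62 in MDS-L against 14.12 and 13.39 in SKM-1. B2M, the light chain of all class I molecules, was within 2-fold, at 14.17 in MDS-L against 14.42 in SKM-1.

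Among hematopoietic transcription factors, 24 of 68 measured ones were past 2-fold higher and 7 lower, with a median of 0.48. GATA2, a factor of stem cells and mast cells, had 12.96 in MDS-L against 9.85 in SKM-1, 8.65-fold higher. TAL1 and LYL1, related factors of stem cells, were 7.71-fold and 7.83-fold higher. ERG, an ETS factor of stem cells, had 8.31 in MDS-L against 3.43 in SKM-1. These belong to the set of factors that blood stem cells share. TFEC, a factor related to MITF, and BCL11A were also higher, with 9.58 and 8.74 in MDS-L against 3.05 and 5.44 in SKM-1. MYCN had 10.24 in MDS-L against 3.24 in SKM-1, while its relative MYC was alike in the lines, with 12.07 in MDS-L against 12.30 in SKM-1. Lower in MDS-L were LEF1, a WNT factor, with 3.61 in MDS-L against 7.97 in SKM-1, and PPARG, with 3.74 in MDS-L against 6.96 in SKM-1. Several central myeloid factors lay within 2-fold. CEBPA, needed for granulocyte precursors, had 11.85 in MDS-L against 11.30 in SKM-1, MYB had 11.95 in MDS-L against 11.60 in SKM-1, and the repressor GFI1 had 9.33 in MDS-L against 9.28 in SKM-1. GATA1, the factor of the erythroid and platelet branches, was low in both, with 6.63 in MDS-L against 5.85 in SKM-1.

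HOX genes differed in 1 of 11 measured members. HOXB2 had 9.97 in MDS-L against 3.84 in SKM-1, under background, at least 34.1-fold higher. Its neighbours HOXB3 and HOXB4 were well above background in both lines and within 2-fold, HOXB3 with 8.30 in MDS-L against 7.66 in SKM-1 and HOXB4 with 9.06 in MDS-L against 9.16 in SKM-1. The remaining measured HOX genes, HOXB1, HOXB6, HOXB13, HOXC5, HOXC6, HOXC13, HOXD10 and HOXD13, lay between 4.76 and 6.59 in MDS-L and between 4.91 and 6.49 in SKM-1, close to background, with differences between -0.48 and 0.10. Under background in both lines were 16 others, including HOXB5, HOXB7, HOXB8 and HOXB9, HOXC8 to HOXC11 and HOXD4, HOXD8 and HOXD9. Of the A cluster only HOXA2 was analysed here, and it was under background in both. The HOX partners differed more. MEIS1, the cofactor that myeloid leukemias pair with HOX proteins, had 9.17 in MDS-L against 4.84 in SKM-1, just under background, at least 19.5-fold higher. MEIS2 showed the reverse, with 4.44 in MDS-L, under background, and 8.88 in SKM-1, at least 16.3-fold lower. Each line thus had 1 of these 2 related factors above background and the other under it. PBX3, a further partner, had 9.88 in MDS-L against 9.06 in SKM-1. KMT2A, which keeps HOX genes active, was 2.17-fold higher, and MLLT3 2.68-fold higher.

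Of the growth factor and cytokine receptors, 16 of 60 measured ones were past 2-fold higher and 11 lower, with a median of -0.07. CSF2RB, the beta chain shared by the receptors of IL-3, GM-CSF and IL-5, had 13.62 in MDS-L against 9.55 in SKM-1, 16.9-fold higher. IL3RA, the IL-3-binding chain, had 9.04 in MDS-L against 5.34 in SKM-1, a log2 difference of 3.70. CSF2RA, the GM-CSF-binding chain, was 2.06-fold higher, with 6.91 in MDS-L against 5.87 in SKM-1, and the IL-5-binding chain IL5RA was under background in both. All measured chains of this receptor family were higher in MDS-L, the line kept in IL-3. CSF3R, the G-CSF receptor, ran the other way, with 7.27 in MDS-L against 8.26 in SKM-1, just short of 2-fold. EPOR, the erythropoietin receptor, lay at background, with 4.80 in MDS-L against 4.91 in SKM-1. The common gamma chain IL2RG and the beta chain IL2RB of the IL-2 receptor had 10.56 and 8.85 in MDS-L against 5.75 and 4.86 in SKM-1. IL18R1 and the growth factor receptors FGFR2 and FGFR3 were higher, at least 10.2-fold, at least 10.6-fold and 7.59-fold. By the median over its probe sets, however, FGFR2 was under background in both lines. The receptors that stood out in SKM-1 were others. RET, a receptor tyrosine kinase of neural cells, had 3.14 in MDS-L against 9.23 in SKM-1, at least 20.9-fold lower. IL6R, the IL-6-binding chain, had 6.85 in MDS-L against 10.00 in SKM-1, 8.86-fold lower, while the shared chain IL6ST was within 2-fold. IGF2R and IL13RA1 were 8.87-fold and at least 11.2-fold lower.

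Of the TNF receptor family, receptors of the death ligand TRAIL were lower in MDS-L. TNFRSF10A had 4.55 in MDS-L against 8.27 in SKM-1, and TNFRSF10B 6.46 in MDS-L against 9.37 in SKM-1. The decoy receptor TNFRSF10D was 3.95-fold lower and TNFRSF10C within 2-fold. TNFSF10, TRAIL itself, was 6.41-fold higher. The receptors of TNF and FAS ligand were higher: TNFRSF1B had 8.31 in MDS-L against 5.40 in SKM-1, and FAS 8.68 in MDS-L against 7.39 in SKM-1. TNFRSF4 (OX40), a co-stimulatory receptor of T cells, was 18.5-fold higher. G protein-coupled receptors leaned to MDS-L, with 18 of 52 higher and 8 lower. PTAFR, the receptor of platelet-activating factor, had 9.92 in MDS-L against 5.54 in SKM-1, 20.9-fold higher. CXCR4, which holds progenitors in the marrow, had 7.53 in MDS-L against 3.83 in SKM-1, under background, at least 6.24-fold higher. The formyl peptide receptors FPR1 and FPR2 were at least 5.72-fold and at least 4.87-fold higher. For FPR2 the median over its probe sets was under background in both lines. ADGRG3, P2RY2 and the adenosine receptor ADORA2B were lower, 10.5-fold, at least 7.29-fold and 6.64-fold in turn.

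JAK-STAT genes leaned to MDS-L, with 17 of 37 at least 2-fold higher and 1, the adaptor SH2B2, lower. PIM1, a kinase induced by STAT5, had 12.09 in MDS-L against 6.83 in SKM-1, 38.2-fold higher, and its 4 probe sets gave differences between 4.82 and 6.36. CISH, the inhibitor first described as an IL-3-induced gene, had 9.39 in MDS-L against 6.25 in SKM-1, 8.82-fold higher. SOCS1, SOCS2 and SOCS3 had 8.98, 10.59 and 6.22 in MDS-L against 4.35, 7.19 and 4.27 in SKM-1. CCND2, a D-type cyclin, and BCL2L1, the survival protein BCL-XL, were 8.17-fold and 6.36-fold higher. OSM, the cytokine oncostatin M, had 9.48 in MDS-L against 5.71 in SKM-1. PIM2 and PIM3, the relatives of PIM1, were within 2-fold. Of the kinases, JAK3, the kinase of the common gamma chain, had 8.93 in MDS-L against 4.68 in SKM-1, at least 16.5-fold higher. JAK1 and JAK2 were 3.41-fold and 2.19-fold higher, and TYK2 was within 2-fold. Of the STATs, STAT5A was 2.88-fold higher, with 9.53 in MDS-L against 8.01 in SKM-1, while STAT5B, STAT3 and STAT6 lay within 2-fold.

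The promoter of CISH is shown because STAT factors bind TTCNNNGAA, a motif that occurs more than once in it. It lies at chr3:50611775-50611924 on the minus strand (RefSeq, build GRCh38.p14), and the capitals mark the motif, which 3.66% of RefSeq promoters hold in a window of this length.
CISH: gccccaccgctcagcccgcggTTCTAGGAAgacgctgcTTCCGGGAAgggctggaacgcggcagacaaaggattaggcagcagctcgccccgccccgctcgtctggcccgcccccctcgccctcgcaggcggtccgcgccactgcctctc
The motif, which reads alike on both strands, was found 2 times, beginning 129 and 112 bases before the start. Since the promoter was picked for holding the motif, these matches are no result. They are not shown binding sites, and a link of STAT factors to the difference in CISH was not tested.

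RAS and MAPK genes differed in both directions, 16 of 67 higher and 10 lower. RASGRP3, an exchange factor that loads RAS with GTP, had 10.86 in MDS-L against 4.75 in SKM-1, under background, at least 62.8-fold higher. SOS1, the exchange factor recruited by receptors, had 12.21 in MDS-L against 8.42 in SKM-1, 13.8-fold higher. The feedback phosphatase DUSP6 had 11.91 in MDS-L against 8.76 in SKM-1, 8.90-fold higher. MRAS, a RAS relative, had 3.78 in MDS-L against 9.76 in SKM-1 and was at least 30.1-fold lower. SPRED1, an inhibitor of RAS activation, had 3.35 in MDS-L against 7.86 in SKM-1, at least 8.08-fold lower. JUN was 5.39-fold lower, and the ERK-induced ETS factors ETV4, ETV5 and ETV1 were 3.07-fold, 2.52-fold and at least 3.94-fold lower. Targets of the pathway thus did not run 1 way: DUSP6, DUSP4 and PHLDA1 were higher while the ETV genes were lower, and FOS, EGR1 and SPRY2 were within 2-fold. HRAS was within 2-fold. The exchange factor RASGRP1 was 3.19-fold lower and RASGRP4 at least 6.64-fold higher. ETV1 and RASGRP1 were under background in both lines by the median over the probe sets of each gene.

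PI3K, AKT and FOXO genes had 13 of 46 higher and 1, the AKT-binding pseudokinase TRIB3, lower. DEPTOR, an inhibitor inside the mTOR complexes, had 10.88 in MDS-L against 6.43 in SKM-1, 21.9-fold higher. TRIB2 had 11.81 in MDS-L against 8.95 in SKM-1, 7.29-fold higher. PIK3R5, a regulator of the gamma form of PI3K, and the catalytic subunit PIK3CB were 5.44-fold and 3.88-fold higher. FOXO1, the forkhead factor that the study follows, was level between the lines, with 7.37 in MDS-L against 7.38 in SKM-1. FOXO3 and FOXO4 lay within 2-fold too, FOXO3 with 8.88 in MDS-L against 8.39 in SKM-1 and FOXO4 with 8.36 in MDS-L against 8.10 in SKM-1. Of genes known as FOXO targets, TXNIP was higher by 2.58-fold, SESN1 by 2.57-fold and BCL2L11 by 2.05-fold, while CCNG2 and IRS2 were within 2-fold. Other genes that the study places in the FOXO1 pathway or downstream of it are described in other paragraphs. Of these, TNFSF10, CCND1 and CCND2 were higher, BNIP3 and TLR4 lower, and CDKN1A and CDKN1B within 2-fold. FOXO1 protein and its phosphorylation were not measured on these arrays.

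TGF-beta and BMP genes leaned to MDS-L, 14 of 39 higher and 5 lower. Higher were the type 2 receptor TGFBR2, by 8.10-fold, and its signal carrier SMAD3 with 11.23 in MDS-L against 8.15 in SKM-1. So were the inhibitors: SMAD6 had 12.15 in MDS-L against 7.79 in SKM-1, 20.5-fold higher, and BAMBI 11.03 in MDS-L against 7.87 in SKM-1, 8.89-fold higher. The ligand GDF11 was 13.8-fold higher. TGFBR3, a co-receptor, had 4.87 in MDS-L against 7.78 in SKM-1, 7.51-fold lower, and the activin receptor ACVR2B at least 6.30-fold lower.

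WNT genes leaned to SKM-1, with 12 of 42 lower in MDS-L and 4 higher. The co-receptor LRP6 had 4.46 in MDS-L against 8.71 in SKM-1, at least 14.6-fold lower, and LGR4, the receptor of R-spondins, 2.71 in MDS-L against 7.50 in SKM-1, at least 6.33-fold lower. The frizzled receptors FZD3 and FZD1 were at least 5.67-fold and at least 3.37-fold lower, and FZD4 and FZD8 2.71-fold and 2.18-fold. FZD4 was under background in both lines by the median over its probe sets. The other co-receptor LRP5 was 2.77-fold higher and beta-catenin (CTNNB1) 2.26-fold higher, its 8 probe sets giving differences between -0.06 and 1.17. NKD2, an inhibitor of the pathway, had 9.72 in MDS-L against 5.53 in SKM-1. Of the NOTCH receptors, NOTCH1 had 9.36 in MDS-L against 6.83 in SKM-1, 5.78-fold higher, NOTCH2 lay within 2-fold, and the target HES1 had 6.39 in MDS-L against 6.41 in SKM-1.

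The measured Toll-like receptors that differed were lower in MDS-L. TLR4, the receptor of bacterial lipopolysaccharide, had 5.22 in MDS-L against 9.08 in SKM-1, 14.5-fold lower. TLR2, the receptor of bacterial lipoproteins, had 5.79 in MDS-L against 8.32 in SKM-1, 5.79-fold lower. TLR1 and TLR9 lay within 2-fold near background, and the others analysed were under background in both. The co-receptor LY96 and the adaptor MYD88 lay within 2-fold, and CD14 ran against TLR4, as given above. The joint list of NF-kB and Toll-like receptor genes had 9 of 41 measured members higher and 3 lower. RELB, BCL3, the kinase IKBKB and the inhibitor TNFAIP3 were 4.02-fold, 4.81-fold, 4.29-fold and 3.46-fold higher, while RELA and NFKB1 were within 2-fold. BCL3 was under background in both lines by the median over its probe sets.

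**Figure D4:**
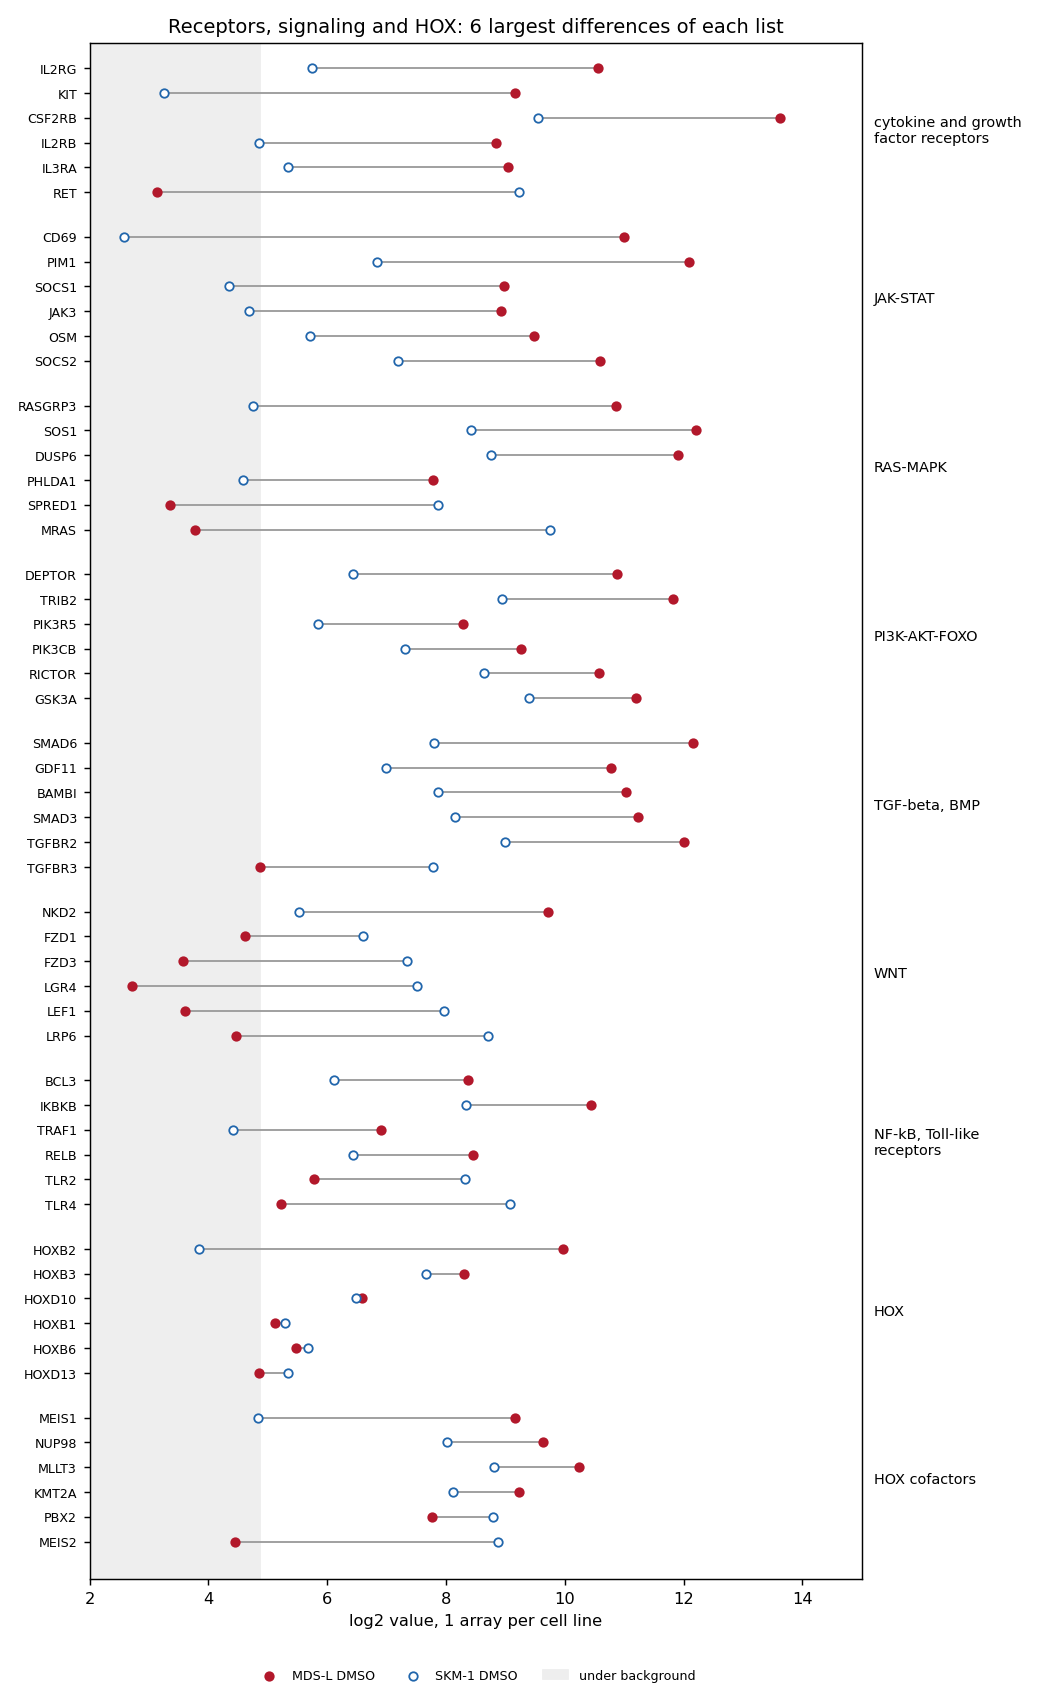
For 9 lists of receptors, signaling and HOX genes the 6 measured members with the largest difference are shown, with MDS-L DMSO as filled red points and SKM-1 DMSO as open blue points (log2 value, 1 array each). The grey area is under background. All 6 JAK-STAT genes shown were higher in MDS-L, 5 of 6 WNT genes lower, and HOXB2 is the only HOX gene with points far apart.

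Secreted factors and adhesion molecules also leaned to MDS-L. Among cytokines and chemokines 16 of 51 measured members were higher, 7 lower and 28 within 2-fold, with a median of 0.15. IL1B, interleukin 1 beta, had 12.10 in MDS-L against 6.64 in SKM-1, 43.9-fold higher, and TNF had 9.11 in MDS-L against 5.38 in SKM-1, 13.2-fold higher. LTB, lymphotoxin beta, had 11.35 in MDS-L against 6.96 in SKM-1. The chemokine CXCL8 was 2.09-fold higher, at 12.73 in MDS-L against 11.66 in SKM-1. CCL3 and KITLG, the ligand of KIT, were lower, with 8.60 and 4.94 in MDS-L against 10.88 and 7.26 in SKM-1. KIT and its ligand thus ran opposite ways between the lines by their brightest probe sets. By the median over the probe sets of each gene, both were under background in both lines. IL3 and IL5 were under background in both. Among integrins ITGA2B, ITGA6 and ITGAL, the alpha chain of LFA-1, were higher, ITGAL with 9.72 in MDS-L against 6.58 in SKM-1, while ITGB1, ITGB2 and ITGA4 lay within 2-fold. The adhesion list had 19 of 46 higher and 4 lower.

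Interferon-stimulated genes were divided, 12 of 56 higher and 15 lower, with a median of -0.53. CMPK2, a mitochondrial nucleotide kinase, had 12.35 in MDS-L against 7.61 in SKM-1, 26.8-fold higher. IFI16, a DNA sensor, had 9.98 in MDS-L against 6.61 in SKM-1, and APOBEC3G, a cytidine deaminase that restricts viruses, 8.88 in MDS-L against 4.17 in SKM-1. SAMHD1, which degrades deoxynucleotides, had 6.77 in MDS-L against 9.75 in SKM-1, 7.90-fold lower, and ISG15, a ubiquitin-like protein, 9.97 in MDS-L against 11.74 in SKM-1. The deaminase APOBEC3B, a relative of APOBEC3G, ran opposite to it, with 5.02 in MDS-L against 10.43 in SKM-1, 42.4-fold lower.

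Genes of DNA replication and mitosis were lower in MDS-L: 29 of 66 were at least 2-fold lower and 3 higher, with a median of -0.87. CCNB1, the mitotic cyclin B1, had 8.82 in MDS-L against 11.21 in SKM-1, and KIF20A, a mitotic kinesin, 6.73 in MDS-L against 9.38 in SKM-1. MCM7, a subunit of the replicative helicase, had 10.78 in MDS-L against 12.52 in SKM-1. PCNA and TYMS lay within 2-fold. E2F2, an activating E2F factor, was 3.93-fold higher. The share of dividing cells in each culture was not measured. CDKN2A, the inhibitor p16 and its alternative product ARF, had 7.60 in MDS-L against 12.91 in SKM-1, 39.5-fold lower. CDKN1C, the inhibitor p57, ran the other way, with 10.37 in MDS-L against 6.55 in SKM-1, 14.1-fold higher, while CDKN1A and CDKN1B were within 2-fold. CCND1 was at least 4.53-fold higher and CDK6 3.69-fold higher.

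Genes known as p53 targets had 10 of 31 higher and 1, TNFRSF10B, lower. TP53INP1, a stress-induced protein, had 11.83 in MDS-L against 6.57 in SKM-1, 38.4-fold higher. MDM2, the ubiquitin ligase of p53, was 2.46-fold higher, and CDKN1A and BAX lay within 2-fold. Of the BCL2 family, 6 of 20 measured members were higher and 1 lower, with a median of -0.22. BCL2A1 had 11.31 in MDS-L against 6.96 in SKM-1, 20.5-fold higher, BCL2 was 3.19-fold higher, and MCL1 lay within 2-fold. BNIP3, a hypoxia-induced member, was 4.02-fold lower. Of the genes that take up and handle decitabine, 4 of 24 were higher (16.7%) and 3 lower (12.5%), against 12.4% and 12.1% of all genes. DCK, the kinase that activates it, had 10.10 in MDS-L against 9.44 in SKM-1, CDA, which breaks it down, lay at background in both, and its target DNMT1 had 10.85 in MDS-L against 10.56 in SKM-1. The nucleoside transporter SLC29A1 was 2.61-fold lower and TET2, which oxidizes methylcytosine, 5.38-fold higher.

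Of the genes often mutated in MDS, 11 of 45 were higher (24.4%) and 6 lower (13.3%), beside the same 12.4% and 12.1%. STAG2, a cohesin subunit encoded on the X chromosome, had 11.26 in MDS-L against 6.82 in SKM-1, 21.7-fold higher, and its 4 probe sets gave differences between 3.42 and 4.44. The other cohesin genes did not share this: RAD21 and SMC3 were within 2-fold and SMC1A was 2.88-fold lower. Sequence variants were not analysed here.

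Many large differences belonged to genes outside the lists, in groups that were picked out after their values were seen. Glutathione transferases went both ways, GSTM3 being 65.9-fold lower and GSTP1 31.3-fold higher, GSTP1 with 12.64 in MDS-L against 7.67 in SKM-1. The other measured probe set of GSTP1 gave a difference of -0.09. Annexins, which bind membranes with calcium, were lower, 6 of 10 measured ones, none was higher, and ANXA5 had 3.95 in MDS-L against 11.80 in SKM-1. S100A6 and S100A10, the partner of ANXA2, had 5.30 and 3.70 in MDS-L against 11.86 and 10.35 in SKM-1. Prostaglandin synthases were higher, PTGS1 with 11.80 in MDS-L against 7.49 in SKM-1 and PTGS2 with 10.38 in MDS-L against 7.05 in SKM-1. HPGD, which breaks prostaglandins down, had 12.18 in MDS-L against 4.08 in SKM-1, at least 157-fold higher. Of the BEX, TCEAL and RTL8 genes, small genes of the X chromosome grouped here by symbol only, 8 of 9 measured were lower. BEX3 had 3.02 in MDS-L against 12.62 in SKM-1, and only TCEAL8 ran the other way, with 9.42 in MDS-L against 3.47 in SKM-1. Zinc finger genes of chromosome 19 leaned to MDS-L: of 192 measured ZNF genes there 71 were higher and 3 lower, against 25 higher and 8 lower of 190 on other chromosomes. ZNF562 was at least 31.8-fold higher.

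Seen by chromosome, the autosome with the lowest median difference was 5. Of its 553 measured genes 179 (32.4%) were past 2-fold lower in MDS-L and 25 higher, with a median difference of -0.54. The medians of the other autosomes lay between -0.16 and 0.24. On chromosome X, 119 of 421 genes (28.3%) were past 2-fold lower and 43 higher, with a median of -0.31. When the measured genes were cut, in gene order, into 316 windows of 40 to 51 genes, all 13 windows of chromosome 5 had medians below 0, and 8 of them were among the 25 lowest of all. The lowest, of 43 genes that run along the chromosome in order between CWC27 and TBCA, had a median of -1.02, with 24 genes at least 2-fold lower and 1 higher. Windows of X ranked 2 and 4 from the lowest, with medians of -0.98 and -0.93. The next along chromosome 5, between AP3B1 and RGMB, had a median of -0.95. The genes of band 5q31 to 5q33, a stretch that is often lost in MDS, had 26 of 76 measured members lower and 5 higher, with a median of -0.59. SPARC, a matrix protein encoded there, had 4.36 in MDS-L against 10.17 in SKM-1, at least 40.2-fold lower, and ANXA6 3.69 in MDS-L against 10.66 in SKM-1. RPS14, a ribosomal protein, had 13.89 in MDS-L against 14.38 in SKM-1, and CSNK1A1, a kinase, 10.32 in MDS-L against 10.71 in SKM-1, both within 2-fold. CD74 lies in the same stretch and was higher, as given above.

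Other stretches differed as blocks. On chromosome 7 the 41 genes between GATAD1 and MCM7 had a median of -0.75, and 92.7% of them were below 0. Windows of chromosome 19 were the highest of all, with medians of 1.07 between FPR2 and CACNG8 and 1.01 between ZNF283 and ERCC2. The last window of chromosome 15, between ZNF774 and WASH3P, had 0.92. The quartiles of all windows were -0.17 and 0.16. The copy number of these stretches was not measured.

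**Figure D5:**
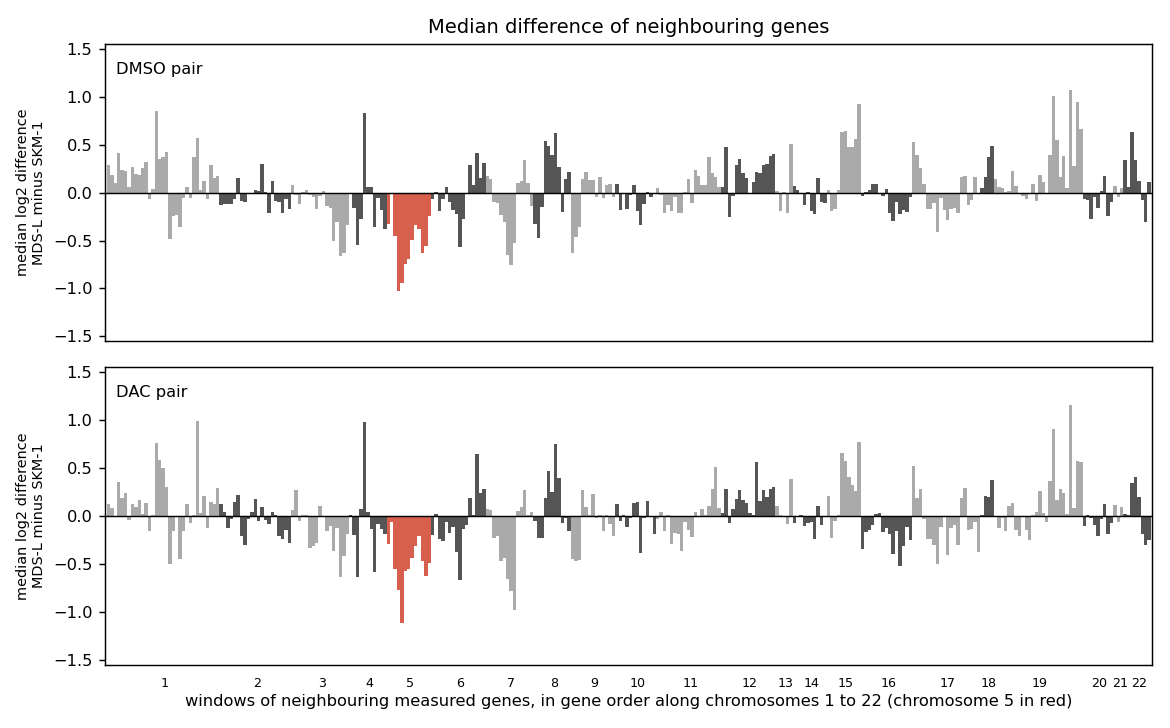
Each bar is the median log2 difference, MDS-L minus SKM-1, of a window of neighbouring measured genes, in gene order along chromosomes 1 to 22, for the DMSO pair (top) and the DAC pair (bottom). Chromosome 5 is in red, and its bars in the DMSO pair lie between -1.02 and -0.01.

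The DAC arrays show the same lines in another state. Their values entered the comparison above only through the choice of each gene's probe set. On them 1271 of the 1621 genes that were higher with DMSO and measured with DAC were again past 2-fold higher in MDS-L, while 1 was lower. Of the genes lower with DMSO, 1218 of 1575 were again lower and 6 higher. Among all genes measured with DAC, 15.0% were past 2-fold higher in MDS-L and 15.6% past 2-fold lower. FCER1A had 14.33 in MDS-L against 4.02 in SKM-1 with DAC, HLA-DRA 12.99 in MDS-L against 5.44 in SKM-1, and CSF2RB 13.72 in MDS-L against 9.45 in SKM-1. ELANE had 4.40 in MDS-L against 13.03 in SKM-1 with DAC, and TLR4 5.62 in MDS-L against 8.20 in SKM-1. HOXB2 and HOXB4 had 10.76 and 9.52 in MDS-L against 5.58 and 9.61 in SKM-1. Apart from HOXB4, which was level in both pairs, the differences of these genes between the untreated lines were thus also present between the treated ones. FOXO1, level with DMSO, had 8.32 in MDS-L against 6.94 in SKM-1 with DAC. Chromosome 5 had a median of -0.47 in the DAC pair. Because the treatment differs, the DAC pair is no replicate of the DMSO pair.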

How the data were processed

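Total RNA of MDS-L and SKM-1 cells was hybridised to PrimeView arrays, 1 array for each line and treatment. RNA extraction is given as Trizol in the labels and as a column kit in the methods. The deposited values are log2 expression values per probe set that the authors made by robust multi-array averaging in Partek Genomics Suite according to the methods, while the submitters' processing notes name MAS5. The values of the arrays have nearly the same distribution, so differences are relative to all probe sets.

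Of 49395 probe sets, the platform annotation listed 46826 and left 2569 unlisted. It gave 1 symbol to 44994 and several to 1832, which were left out together with the unlisted ones, and 44967 had a gene ID in RefSeq. Each gene was read by its brightest probe set, taken as the mean over all 4 arrays. Background was the 90th percentile of 359 olfactory receptor probe sets of each array, and lower values were raised to it. The log2 difference was MDS-L minus SKM-1. With 1 array per group only fold thresholds were used, no test, and the precision is limited by that number of arrays. Members, gene lists and the comparison were chosen with earlier results of these data known, and gene windows and symbol groups after the values were seen. Named were the 20 largest differences or bounds in each direction, up to 8 members each way of each list, any member of small lists, defining markers, and some members within 2-fold. Probe sets with several symbols, XIST and genes of chromosome Y were not named. Promoters are the 150 bases before the RefSeq start (GRCh38.p14). Python 3.11.15, numpy 2.4.6 and pandas 2.3.3 were used, and the code was tested on simulated data. Fold threshold, background, raising, normalization, centring and choice of probe set were varied.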

Additional observations from a re-analysis of the deposited data

Results flagged for a closer look

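7 genes that were at least 2-fold apart in 1 direction between the DMSO arrays were at least 2-fold apart in the opposite direction between the DAC arrays. The difference between the pairs was not tested, since each rests on 1 array a line. JAG1, a NOTCH ligand, had a difference of -1.23 with DMSO and 2.17 with DAC. For the chemokines CCL3 and CCL20 the differences with DMSO were -2.28 and -1.15, and those with DAC 1.99 and 1.83. RGS16, a regulator of G protein signaling, had -1.16 with DMSO and 1.37 with DAC. The TRAIL decoy receptor TNFRSF10D had -1.98 with DMSO and 1.12 with DAC, and CRIM1 had -1.03 with DMSO and 1.11 with DAC. With DMSO, the median over the probe sets of CRIM1 was under background in both lines. ZNF726 was the only one that was higher in MDS-L with DMSO, with a difference of 1.74, against -1.17 with DAC.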

How the results depend on the processing

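The counts of genes moved with the fold threshold, to 2824 higher and 2661 lower at 1.5-fold and to 508 higher and 536 lower at 4-fold. Under the 8 other alternatives both counts stayed within 1.5 times, between 1250 and 1718 higher and between 1177 and 1684 lower. Of the genes named, only CTNNB1 turned a difference of over 2-fold, to -0.055 without probe sets shared between transcripts or genes. Over the 8 alternatives, 452 values of named genes moved by more than the spread between probe sets of a gene and 2014 did not, the most with background at the 99th percentile (132 of 291) or at the array median (108 of 301) and with the median over probe sets (104 of 303). With background at the 99th percentile of olfactory receptor probe sets the list medians became 0.94 for stem and progenitor cells, 1.35 for mast cells, basophils and eosinophils, 1.87 for megakaryocytes, 1.16 for T and NK cells (9 genes left), 3.31 for HLA class II, 0.81 for erythroid cells, 0.97 for cells other than blood cells (4 genes left) and -0.93 for granule proteins, where it was 0.05. The cause was not tested beyond the smaller number of genes measured. 73 of the named genes had no value under at least 1 alternative, since none of their probe sets was then left or above background. No paired analysis was possible because each line has 1 array per treatment. Low signals limit the folds, since a gene under background in 1 line has only a bound.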

Other observations

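Among the largest differences outside the lists, several genes of signaling in blood cells were higher in MDS-L. CYTL1, a cytokine-like protein first described in CD34+ cells, had 12.33 in MDS-L against 4.39 in SKM-1, at least 174-fold higher. The receptor CD84, a member of the SLAM family, had 10.64 in MDS-L against 4.44 in SKM-1, and its relative CD244 had 10.43 in MDS-L against 5.21 in SKM-1. HCST, an adaptor of activating receptors, had 11.86 in MDS-L against 6.35 in SKM-1. The membrane adaptor PAG1 and RGS18, a regulator of G protein signaling in platelets, were under background in SKM-1 and at least 69.5-fold and at least 139-fold higher in MDS-L. The semaphorins SEMA7A and SEMA4A were 45.8-fold and 37.2-fold higher. Of the SIGLEC genes, sialic acid receptors, 4 of 8 measured ones were at least 2-fold higher and none lower.

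Genes of the cytoskeleton and of metabolism were among the largest in the other direction. RAB13, a small GTPase of membrane traffic, had 5.04 in MDS-L against 11.93 in SKM-1, 119-fold lower. The actin-bundling plastins PLS3 and PLS1 were at least 88.4-fold and 41.5-fold lower, and TMSB15A, a thymosin that binds actin, at least 95.7-fold. ASS1, an enzyme of arginine synthesis, had 5.78 in MDS-L against 10.73 in SKM-1, and IGFBP2, which binds insulin-like growth factors, 4.87 in MDS-L against 10.30 in SKM-1. PLOD2, a collagen-modifying enzyme, had 3.38 in MDS-L against 10.98 in SKM-1.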
